A study of Mus musculus with 12 samples.

Results

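More differentiated alpha cells were compared with newly generated alpha cells of the mouse pancreas at E17.5, late in gestation. The libraries called B here hold RNA of cells sorted as green and red and labelled as more differentiated alpha cells. The libraries they were set against, called A, hold cells sorted as green dominant and labelled as newly generated alpha cells. Another group, called N, holds the non-alpha cells of the same sorts and served to class genes. All 3 groups come from pancreas and carry the Gcg-Timer genotype, a fluorescent reporter tied to the glucagon gene, so no library is free of the reporter and both alpha cell groups were defined by it. Each group has 4 libraries, so 8 of the 12 libraries of the series enter the comparison, and the 4 replicates come from different mothers. The labels do not say how many embryos each preparation pooled.

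Alpha cells are the islet cells that make glucagon, the hormone that raises blood glucose by acting on the liver. They arise in the embryonic pancreas from endocrine progenitors that express Neurog3, and they carry the transcription factor Irx2 as well as the convertase Pcsk2, which cuts proglucagon to glucagon. In a Timer reporter the red signal appears later than the green, so that mostly green cells have begun to express it recently and cells with both colours have expressed it for longer.

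Total counts were 16216935 to 24259164 per library in B, 18168640 to 25873608 in A and 32114272 to 38545699 in N. Between 20180 and 21383 genes were detected in B libraries and between 19445 and 22038 in A libraries. Of 55417 genes 17230 had enough counts and were tested with edgeR's quasi-likelihood test, and a gene is said to have risen, fallen or been called where its adjusted p was under 0.05. Levels are the deposited TPM values, which scale counts by gene length and library size, listed in the order of replicates 1 to 4, and changes are log2 changes of B over A, so that a positive value means higher in B. An adjusted p without another name is edgeR's, adjusted over all 17230 genes.

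The sort was checked on the reporter and its host gene. Gcg stood at 71673, 60158, 68788 and 98758 TPM in B libraries, against 26930, 24006, 28162 and 45244 TPM in A libraries, and at 85.2 to 114 TPM in N libraries. The B and A libraries did not overlap, and Gcg was higher in B in 4 of 4 replicate pairs (log2 change 1.28, SE 0.26, adjusted p = 0.00613). The reporter sequence EGFP averaged 11770 ± 585 TPM in B and 2579 ± 737 TPM in A (SD, n = 4 each), against 3.47 ± 1.73 TPM in N. The other reporter sequence, mRFP1, averaged 18164 ± 1050 TPM in B, 3956 ± 1121 TPM in A and 4.94 ± 2.56 TPM in N (SD, n = 4 each). Both reporter sequences rose by 2.19 on the log2 scale, in 4 of 4 replicate pairs (adjusted p = 0.000772 for EGFP and 0.00106 for mRFP1). In each B and each A library Gcg was far above its level in any N library.

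Of the 17230 genes tested, 797 rose in B, which is 4.63% of them, and 1571 fell, which is 9.12%. Genes were set apart by their level in N. A gene with a mean under 1 TPM in N was classed as low in N, since carry-over of the cells sampled in N can add little to it. A gene whose mean TPM was higher in N than in both B and A was classed as highest in N. Among 3851 tested genes low in N, 146 rose and 163 fell, shares of 3.79% and 4.23% that lie under those of all genes. A fit of the B and A libraries alone called 153 genes low in N higher and 40 lower. Among 2183 tested genes highest in N, 1 rose and 889 fell, a share of 40.7% lower, with a median log2 change of -1.2. Among the other 11196 tested genes, 650 rose and 519 fell, and their median log2 change was 0.05. In bulk RNA, fewer cells of a type and less RNA per cell cannot be told apart. Without B1, B4, A1 or A2 the count of genes that rose was 450, 473, 440 or 444, and without B1, B4 or A2 the count among genes low in N was 85, 88 or 88. Among the other genes 365, 426, 384, 339 or 355 rose without B1, B3, B4, A1 or A2 and 983 without N2, and 306, 318 or 285 fell without B1, A1 or A2. The split between the classes depends on the rule. With the rule required in every library 98 genes highest in N and 1362 other genes fell. With classes by normalised counts in place of TPM, an alternative added after the data were seen, 1299 genes highest in N and 109 other genes fell. Erythroid markers summed to 210000 to 508000 TPM in N libraries, and so large a part of the TPM total lowers the TPM of other genes there. The part that this has in the 1 TPM limit and the classes was not tested.

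**Figure D1:**
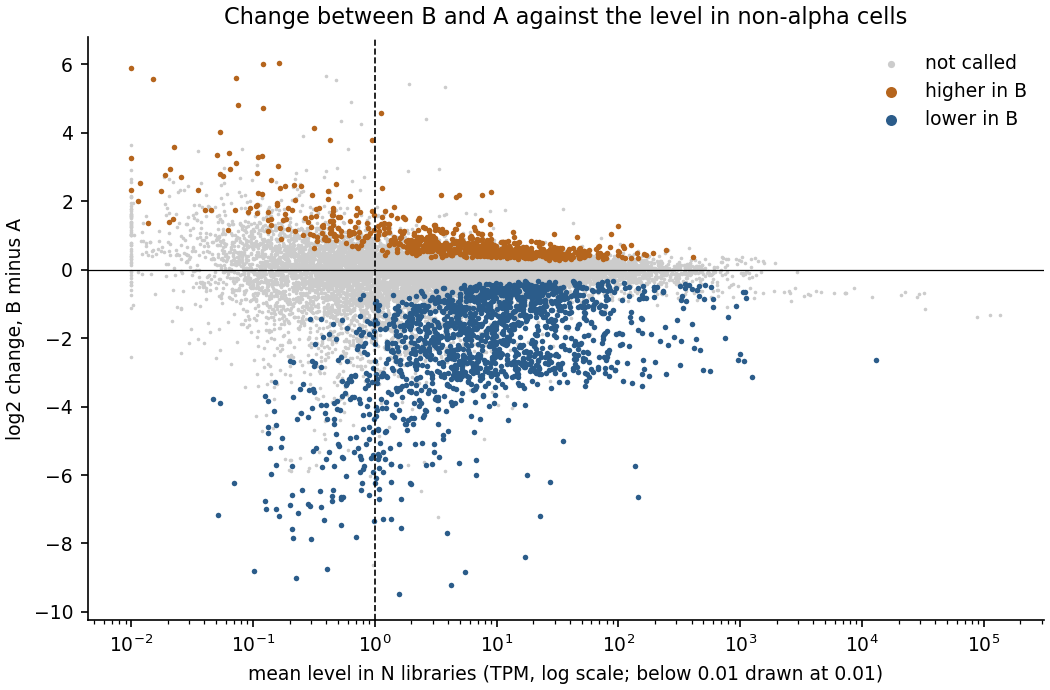
Each point is a tested gene, placed by its mean TPM in the 4 N libraries (log scale) and its log2 change of B over A, with genes called higher in B, called lower in B and not called in separate colours. Left of the dashed line at 1 TPM the 146 rises and 163 falls lie on both sides of 0, while among the 2183 genes highest in N 889 fell and 1 rose.

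The level of a gene in the alpha cells divided the genes low in N further. Of all 11266 tested genes that reached 5 TPM in B or A, 6.49% rose and 8.21% fell. Of the 382 among them that were low in N, 91 rose, a share of 23.8%, and 1 fell, a share of 0.262%, with a median log2 change of 0.57. Of the 3469 genes low in N that stayed under 5 TPM in both groups, 55 rose and 162 fell. Taking the level in A alone gave 245 tested genes low in N with at least 5 TPM in A, of which 48 rose and 1 fell, with a median of 0.37 and quartiles of 0.05 and 0.71. The 146 genes that rose had median levels of 7.21 TPM in B, 2.63 TPM in A and 0.319 TPM in N, and 127 of them, or 87.0%, showed no overlap between B and A libraries, against 82.7% of all 797 genes that rose. In 138 of them B was higher in all 4 replicate pairs, 120 changed by more than 2-fold, and 91 rose by more than Gcg did. Among all 797 genes that rose these counts were 770, 189 and 117. Among called genes of at least 5 TPM with no overlap, those nearest the class limit were Lrrc10b, Ppp4r4 and Nkx6-2 on the inside, at 0.878 to 0.949 TPM in N, and Scin, Slc18a1 and Pgbd5 on the outside, at 1.035 to 1.06 TPM.

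Summed over all genes of a class, genes low in N took 1.43% ± 0.152 of the counts of B libraries, 1.16% ± 0.0771 of A libraries and 0.506% ± 0.0521 of N libraries (SD, n = 4 each). Genes highest in N took 9.08% ± 3.24 of counts in B, 16.6% ± 2.53 in A and 52.5% ± 2.1 in N. Both differences between B and A reached the smallest p that the 70 splits of 4 against 4 libraries allow (exact two-sided permutation test, p = 0.0286), and all 4 replicate pairs agreed in direction. The class highest in N was set with the B and A means of these same libraries, so its p is descriptive only. The splits also leave the pairing of same-numbered libraries out. With the class rule required in every library the difference for genes highest in N was -0.643 percentage points, against -7.56, and with classes by normalised counts it was -9.92. Taken as 4 replicate pairs, an exact sign-flip permutation test cannot go below p = 0.125, the value both differences gave. The part that the larger share of such transcripts in A libraries has in the changes of other genes was not tested.

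Among genes low in N that reached 5 TPM and whose B and A libraries did not overlap, Nkx6-2 (ENSMUSG00000041309.18), which encodes a homeodomain transcription factor, had the largest log2 change. It stood at 14.8, 14.4, 9.21 and 14.4 TPM in B libraries, against 0.673, 0.609, 1.75 and 0.6 TPM in A libraries and 0.57 to 1.49 TPM in N libraries. Every B library lay far above every A library, while A and N libraries overlapped (log2 change 3.79, SE 0.44, adjusted p = 0.000396). Cacng5, a relative of the calcium channel gamma subunits, stood at 5.31, 5.92, 7.85 and 8.49 TPM in B and at 0.202, 0.614, 0.019 and 1.42 TPM in A (log2 change 3.58, SE 0.84, adjusted p = 0.0134). Calcr, the calcitonin receptor, stood at 5.12, 5.66, 7.3 and 9.82 TPM in B and at 0.163, 0.926, 0 and 1.51 TPM in A, with at most 0.123 TPM in any N library. Both genes were under 2 TPM in every A library and above 5 TPM in every B library. The call of Calcr (log2 change 3.41, SE 0.9, adjusted p = 0.0239) was lost without B4, A1 or A2, where its adjusted p reached 0.066.

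A receptor, a vesicle protein and several enzymes were among the further rises of genes low in N. Gucy2c, the guanylate cyclase that serves as receptor for guanylin peptides, stood at 7.13, 6.66, 11.4 and 5.89 TPM in B and at 1.16, 1.82, 0.92 and 1.81 TPM in A (log2 change 2.44, SE 0.3, adjusted p = 0.00055). Syt4, a synaptotagmin of secretory vesicles, stood at 10.7, 6.46, 4.89 and 7.94 TPM in B and at 3.33, 1.32, 0.509 and 1.72 TPM in A (log2 change 2.16, adjusted p = 0.00902). Its B and A libraries did not overlap, and replicate 1 was the highest in both groups. Bhmt2, a methyltransferase of methionine synthesis, rose by 2.39 on the log2 scale, Baiap2l2, a membrane-shaping protein that binds actin, by 2.47, and Crtac1, a secreted matrix protein, by 2.31. Smbd1 and the unnamed locus 4930447F24Rik rose by 3.36 and 2.18. Pck1, the rate-limiting enzyme of gluconeogenesis, was at 1.83, 1.02, 5.15 and 0.205 TPM in B and at 0 TPM in 3 of 4 A libraries. Its call (adjusted p = 0.0214) was lost without B3, A1 or A2 and with the replicate block (adjusted p up to 0.065).

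Genes of plasma proteins, best known as products of hepatocytes, were among the rises. Of 24 tested members of a plasma protein list, 7 rose (29.2%, against 4.63% of all genes) and 1, Cfi, fell, and the list's median log2 change was 0.66 against -0.01 over all genes tested. The fall of Cfi, complement factor I, was lost with the replicate block (adjusted p = 0.0504) and without B1, B3, B4, A2, A4 or N1 (adjusted p up to 0.115). Of the 7 rises 4, those of Fgb, Serpina1a, Serpina1b and Serpind1, belonged to genes low in N, and the others were Afp, Ttr and Trf. Fgb, which encodes the beta chain of fibrinogen, stood at 24.8, 16, 13.8 and 25.5 TPM in B libraries, against 2.01, 0.814, 5.23 and 4.31 TPM in A libraries and at most 0.039 TPM in N libraries. All 4 B libraries lay above all A libraries (log2 change 2.7, SE 0.45, adjusted p = 0.00201). Serpind1, heparin cofactor II, stood at 22.7, 19.5, 17.8 and 21.7 TPM in B, against 2.64, 3.83, 5.53 and 6.66 TPM in A (log2 change 2.07, adjusted p = 0.00234). Serpina1a and Serpina1b encode alpha-1-antitrypsins, are near-identical copies and so are uncertain one by one. They rose by 1.13 and 1.39. Afp, alpha-fetoprotein, stood at 5.62 to 8.59 TPM in B and 1.35 to 3.89 TPM in A (log2 change 1.52, adjusted p = 0.00516). Ttr, transthyretin, which alpha cells also make, stood at 2101 to 3492 TPM in B and 1315 to 1996 TPM in A (log2 change 0.73, adjusted p = 0.012). Trf, transferrin, stood at 136 to 247 TPM in B and 56.8 to 121 TPM in A (log2 change 0.94, adjusted p = 0.0291). Leaving out B4, A1 or A2 ended the calls of Serpina1a, Serpina1b and Trf, B1 those of both Serpina1 genes, A3 those of Serpina1b and Trf, and B2 or A4 that of Serpina1a (adjusted p up to 0.109, 0.087 and 0.0952). Alb, which encodes albumin, the most abundant plasma protein, stood at 2.71 to 5.14 TPM in B, 1.49 to 2.91 TPM in A and 0.409 to 1.06 TPM in N and was not called (adjusted p = 0.172).

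Cpb2, Igfbp1 and Apof, which also encode blood proteins and are not on that list, rose too, and were named for the size of their rises. Cpb2, a plasma carboxypeptidase that slows clot breakdown, stood at 27.6, 25.1, 30 and 64.2 TPM in B and at 5.3, 4.16, 3.46 and 10.3 TPM in A (log2 change 2.62, SE 0.43, adjusted p = 0.00197). Replicate 4 was the highest library in both groups, and the groups did not overlap. Igfbp1, which binds insulin-like growth factors, stood at 9.92, 11.5, 6.51 and 16.2 TPM in B and at 1.38, 0.928, 2.71 and 1.52 TPM in A, with at most 0.051 TPM in N (log2 change 2.76, SE 0.46, adjusted p = 0.00213). Apof, an apolipoprotein, stood at 4.98, 3.07, 5.38 and 10.2 TPM in B and at 1.6, 0.877, 0.4 and 1.87 TPM in A. Its call (log2 change 2.31, adjusted p = 0.0384) was lost without B1, B3, B4, A1, A2 or A3, where its adjusted p reached 0.122. Among other apolipoprotein genes Apoe, highest in N, fell (log2 change -2.02, adjusted p = 0.0219). Apoa1, Apoa2, Apob and Apoh were not called (adjusted p = 0.134 to 0.894).

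The start regions of Fgb, Cpb2 and Igfbp1 are shown as examples of blood protein genes low in N that rose. They are not the largest rises of the class. Cacng5, Calcr and Smbd1, also nearly without signal in N, rose by 3.58, 3.41 and 3.36, against 2.7, 2.62 and 2.76 for these genes, and are not shown. The windows are RefSeq sequences of GRCm38.p6, 300 bases each, 5′ to 3′ on the strand of the gene, from 250 bases before its start. They lie at chr3:83049814-83050113 on the minus strand, chr14:75242037-75242336 on the plus strand and chr11:7197537-7197836 on the plus strand. Capitals mark the motifs found.
Fgb: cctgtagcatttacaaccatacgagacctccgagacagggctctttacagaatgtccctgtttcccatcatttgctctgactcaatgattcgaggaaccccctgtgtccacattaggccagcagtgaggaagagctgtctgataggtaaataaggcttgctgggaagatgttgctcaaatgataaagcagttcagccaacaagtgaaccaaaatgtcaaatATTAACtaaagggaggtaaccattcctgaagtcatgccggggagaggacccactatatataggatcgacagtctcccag
Cpb2: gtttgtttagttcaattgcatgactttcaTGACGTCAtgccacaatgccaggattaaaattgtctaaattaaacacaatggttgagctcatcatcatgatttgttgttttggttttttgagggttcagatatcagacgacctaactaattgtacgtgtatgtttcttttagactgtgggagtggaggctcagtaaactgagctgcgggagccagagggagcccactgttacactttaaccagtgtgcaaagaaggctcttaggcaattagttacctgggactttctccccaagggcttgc
Igfbp1: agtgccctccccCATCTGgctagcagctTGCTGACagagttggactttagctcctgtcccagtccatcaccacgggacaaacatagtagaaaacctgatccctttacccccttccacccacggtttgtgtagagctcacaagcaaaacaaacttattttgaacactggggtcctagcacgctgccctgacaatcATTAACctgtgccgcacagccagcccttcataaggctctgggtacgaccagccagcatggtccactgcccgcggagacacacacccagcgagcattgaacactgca
In the Fgb window the capitals mark ATTAAC, the reverse complement of the partial HNF1 site GTTAAT, and the Igfbp1 window holds the same letters. The Cpb2 window holds TGACGTCA, the cyclic AMP response element, and the Igfbp1 window also holds the MAF site letters TGCTGAC and CATCTG, the reverse complement of the E-box CAGATG.

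Motif letters were counted on both strands over all RefSeq windows of the genes low in N. Of the 146 genes that rose 108 matched by symbol, with 146 windows, and of the 163 that fell 109 matched, with 128 windows. GTTAAT, added to the search after the data were seen, was in 11.6% of windows of genes that rose, 4.69% of those that fell and 7.1% of all 32851 windows. TGACGTCA was in 3.42%, 1.56% and 1.79%, and TGCTGAC in 8.22%, 3.91% and 4.67%, in the same order. The E-box letters CAGATG were in 15.8%, 16.4% and 17.2%, the forkhead letters TGTTTAC in 4.11%, 1.56% and 3.65%, the RFX letters GTTGCC in 12.3%, 19.5% and 12.5%, TATAAA in 8.9%, 12.5% and 13.6%, and the ETS letters CCGGAAGT in 0.685%, 1.56% and 3.89%. These shares describe letters in the windows only, and a gene can have several windows.

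**Figure D2:**
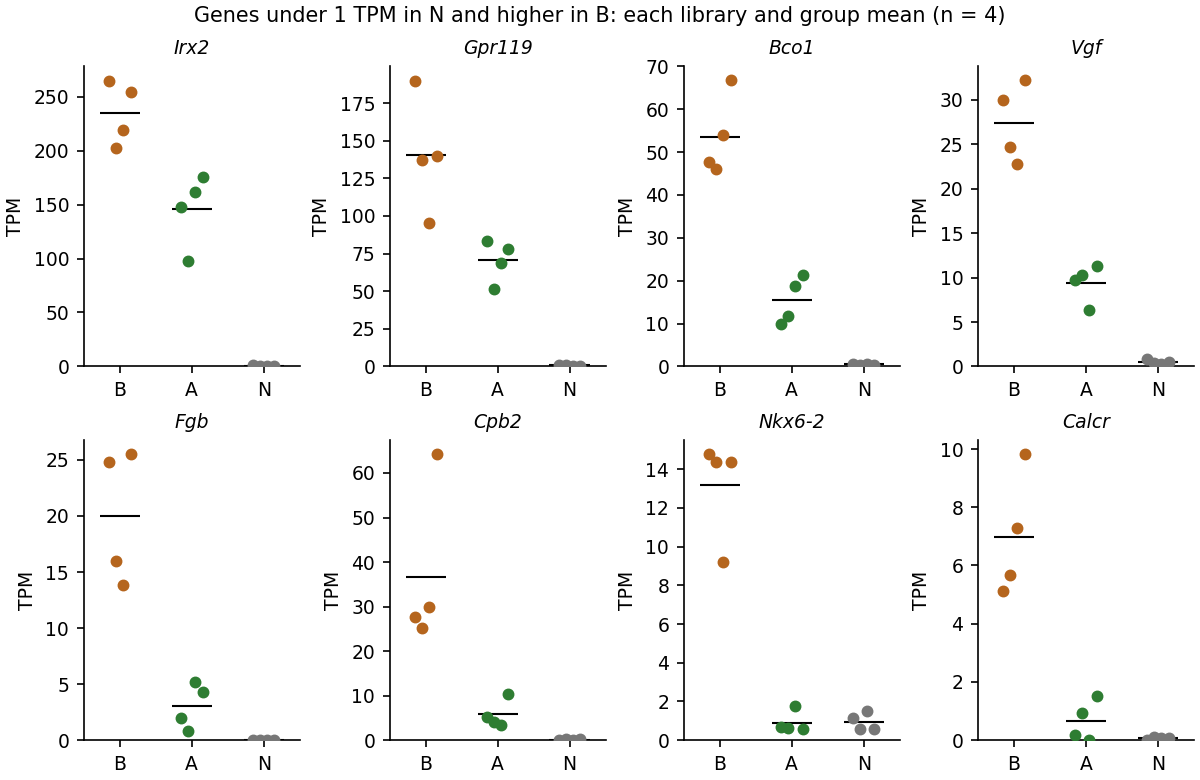
Levels in TPM of 8 genes under 1 TPM in N, with a point for each library, a bar for the group mean and the groups B, A and N from left to right. In every panel the 4 B libraries lie above the 4 A libraries, and in the panels of Nkx6-2 and Calcr the A and N libraries overlap.

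Of 25 tested alpha cell transcription factors, 4 rose, which is 16.0% against 4.63% of all genes tested, 0 fell and 21 were not called. DESeq2 called 5 higher and 0 lower, and at an unadjusted p under 0.05 there were 9 and 0. The median log2 change was 0.32. Irx2, an Iroquois homeobox factor of alpha cells, had the highest mean level in B of all tested genes low in N, at 265, 202, 219 and 254 TPM in B, against 148, 98, 162 and 176 TPM in A and 0.542 to 0.86 TPM in N (log2 change 0.7, SE 0.16, adjusted p = 0.0138). Its B and A libraries did not overlap. Etv1, an ETS factor, averaged 240 TPM in B and 141 TPM in A (log2 change 0.78, adjusted p = 0.00234). Myt1l and Peg3 were near the threshold (adjusted p = 0.0473 and 0.0469), and leaving out B1, B3, B4, A1, A2 or A3 ended both calls (adjusted p up to 0.146 and 0.136), as did B2 or N3 for Myt1l and N1 for Peg3. Myt1l was not called either with the replicate block (adjusted p = 0.0602) or upper quartile factors (0.0505), nor Peg3 without scaling factors (0.0654) or without the filter (0.0534). Irx1 stood at 55.3 to 88.9 TPM in B and 30.1 to 56.6 TPM in A (log2 change 0.76, adjusted p = 0.0844), and was called without N2, by DESeq2 and in a fit of B and A libraries alone.

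Of 26 granule and processing genes, 4 rose (15.4%) and 2 fell (7.69%), with a median log2 change of 0.16. Of 32 exocytosis genes, 7 rose (21.9%) and 2 fell (6.25%), with a median of 0.3. Over all genes tested 4.63% rose and 9.12% fell, so that the shares of falls in both lists were under that of all genes. Vgf, a granule protein cut into neuropeptides, was the granule gene low in N, at 30, 24.7, 22.8 and 32.2 TPM in B and 9.7, 10.3, 6.35 and 11.3 TPM in A (log2 change 1.54, SE 0.25, adjusted p = 0.00189). The groups did not overlap. Ptprn, a granule membrane protein, stood at 61.2 to 106 TPM in B and 28.1 to 47.8 TPM in A (log2 change 1.16), and Rab37, a small GTPase of secretory vesicles, at 101 to 132 TPM in B and 51 to 75.7 TPM in A (log2 change 0.88). Pcsk2 was at 849 to 1166 TPM in B and 631 to 908 TPM in A and was not called (adjusted p = 0.115, called by DESeq2). Pcsk1, the convertase that makes GLP-1 from proglucagon, fell to 29.8, 31.5, 43.8 and 29.4 TPM in B, against 145, 162, 93.6 and 94.5 TPM in A (log2 change -1.87, SE 0.22, adjusted p = 0.000464). Pcsk1 was at 15.1 to 27.3 TPM in N, under every B library.

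Of 34 tested receptor genes, 3 rose (8.82%, against 4.63% of all genes) and 9 fell (26.5%, against 9.12%), with a median of -0.51, and 4 of the 9 falls were of genes highest in N. Gpr119, a receptor for fatty acid amides that couples to cyclic AMP, stood at 190, 137, 95.3 and 140 TPM in B, against 83.4, 51.4, 68.8 and 78 TPM in A and under 1 TPM in each N library (log2 change 1.02, SE 0.24, adjusted p = 0.0144, and 0.0517 without B1). Oxtr, the oxytocin receptor, stood at 25.5, 19, 13.4 and 20.8 TPM in B and at 9.53, 7.06, 7.88 and 9.3 TPM in A (log2 change 1.23, SE 0.18, adjusted p = 0.000996). Gcgr, the glucagon receptor, was among the members that fell, at 0.743 to 0.884 TPM in B, 1.41 to 4.05 TPM in A and 0.603 to 1.62 TPM in N. Its adjusted p of 0.0489 passed the threshold by little, and leaving out any library but A4 or N2 ended the call, as did the mm10 table (adjusted p up to 0.144).

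Ranked by level in B, a choice made after the values were seen, the 10 most abundant risers among genes low in N were Irx2, Gpr119, Nudt11, Igsf21, Drc1, Bco1, Serpina1b, Pcdh8, Dio1 and Gipc2. Nudt11, a phosphatase of inositol pyrophosphates, stood at 77.3, 63.6, 65.6 and 82.4 TPM in B and at 27.8, 24.3, 38.5 and 34 TPM in A (log2 change 1.25, adjusted p = 0.000531). Igsf21, an adhesion protein of synapses, stood at 63.9, 61.4, 63.3 and 78.1 TPM in B and at 23.8, 20.1, 31.6 and 38.2 TPM in A (log2 change 1.24, adjusted p = 0.00134). Both were separated in all libraries. Bco1, which cleaves beta-carotene to retinal, stood at 47.7, 46, 54 and 66.7 TPM in B and at 9.93, 11.8, 18.7 and 21.4 TPM in A (log2 change 1.8, SE 0.23, adjusted p = 0.00055). Dio1, the type 1 deiodinase of thyroid hormone, stood at 32.5 to 52.5 TPM in B and 9.81 to 18.4 TPM in A (log2 change 1.6, adjusted p = 0.00238). Gipc2 and Pcdh8 rose by 1.68 and 1.3, and Mapk4, an atypical kinase at 7.71 to 14.7 TPM in B and 3.09 to 4.58 TPM in A, by 1.6. Of the 146 risers, 141 were protein coding, a share of 96.6%, against 92% of the 163 genes that fell and 68.2% of all tested genes low in N.

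Falls among genes low in N were mostly at the edge of detection. The 163 genes had median levels of 0.0227 TPM in B, 0.532 TPM in A and 0.514 TPM in N, 122 of them were under 1 TPM in A, and 73, or 44.8%, showed no overlap between B and A libraries, against 72.0% of all 1571 genes that fell. In 93 of them the A mean was above the N mean, and in 42 it was more than 2 times the N mean. Among all 1571 genes that fell these counts were 612 and 160. Over all 3851 tested genes low in N the median A level was 259% of the N level. Kcnj13, an inwardly rectifying potassium channel, was the member that reached 5 TPM. It fell to 0.989, 1, 1.66 and 0.331 TPM in B libraries, against 10.9, 4.88, 7.2 and 4.4 TPM in A libraries and 0.173 to 0.571 TPM in N libraries (log2 change -2.73, SE 0.5, adjusted p = 0.00339). Its A libraries lay above all B and all N libraries. A fit of the 8 B and A libraries alone called 40 genes low in N as lower, and a filter of 10 counts in 8 libraries left 61, against 163. Of the 163 falls 38 and 51 were shared with these 2 settings, against 127 and 115 of the 146 rises. The main filter ran over all 12 libraries, so a gene could enter the test on its N counts alone.

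Eosinophil and other granulocyte genes were among these falls. Of 8 tested members of a marker list of 13 genes, 7 fell and 0 rose, and all 4 members low in N fell. The shares of falls were 9.12% of all genes tested and 4.23% of those low in N. The listed genes were near 0 in every B library, so they could pass the count filter only through A or N libraries. A member that was tested could then hardly be called other than lower, and its count is not set against these shares as a result. Ccr3, the eotaxin receptor of eosinophils, was at 0.021, 0.119, 0 and 0 TPM in B libraries, against 9.8, 1.71, 0.454 and 2.72 TPM in A libraries and 0.189 to 0.369 TPM in N libraries (adjusted p = 0.00224). Siglecf and Il5ra, an eosinophil lectin and the interleukin-5 receptor chain, were listed at 0 in all 4 B libraries and in A3. In the other A libraries Siglecf stood at 1.11 to 3.37 TPM and Il5ra at 0.375 to 3.11 TPM (adjusted p = 0.0104 and 0.0124). Alox15, a lipoxygenase of the list that was not low in N, stood at 0 to 0.508 TPM in B, 2.61 to 30.3 TPM in A and 0.734 to 1.76 TPM in N (adjusted p = 0.0016). The summed level of the list was 0.772, 0.853, 0.467 and 1.2 TPM in B libraries, against 158, 44.2, 3.14 and 47.9 TPM in A libraries and 230 to 449 TPM in N libraries. The A libraries differed among themselves, A3 being lowest, and 8 of the 13 listed genes were at 0 in all B libraries. The part of such cells in the falls was not tested. Retnlg and Cyp4f18, known from neutrophils and not low in N, fell too. Retnlg stood at 0, 0, 0 and 0.274 TPM in B, 48.9, 18.7, 16.8 and 15.1 TPM in A and 14.9 to 19.6 TPM in N (adjusted p = 0.000106). Cyp4f18 was detected in 1 of 4 B libraries, at 0.039 TPM, and stood at 0.593 to 21.6 TPM in A and 2.8 to 6 TPM in N (adjusted p = 0.000753).

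Protocadherin genes of the beta cluster, a group of adhesion molecules of neurons that was picked after its values were seen, had falls too. Of 18 tested members 8 fell and 0 rose, and 17 of them, 7 of the 8 included, were low in N. Over all genes tested 9.12% fell, and over those low in N 4.23%. The protocadherin levels were 0.0498 to 0.994 TPM in B, 0.195 to 2.59 TPM in A and 0.168 to 1.01 TPM in N as group means. Pcdhb7 was at 0.551, 0.286, 0.018 and 0.184 TPM in B and at 2.28, 3.02, 2.18 and 1.12 TPM in A (log2 change -3.03, adjusted p = 0.00631). These single-exon genes are near copies of each other, so that reads may be shared among them.

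**Figure D3:**
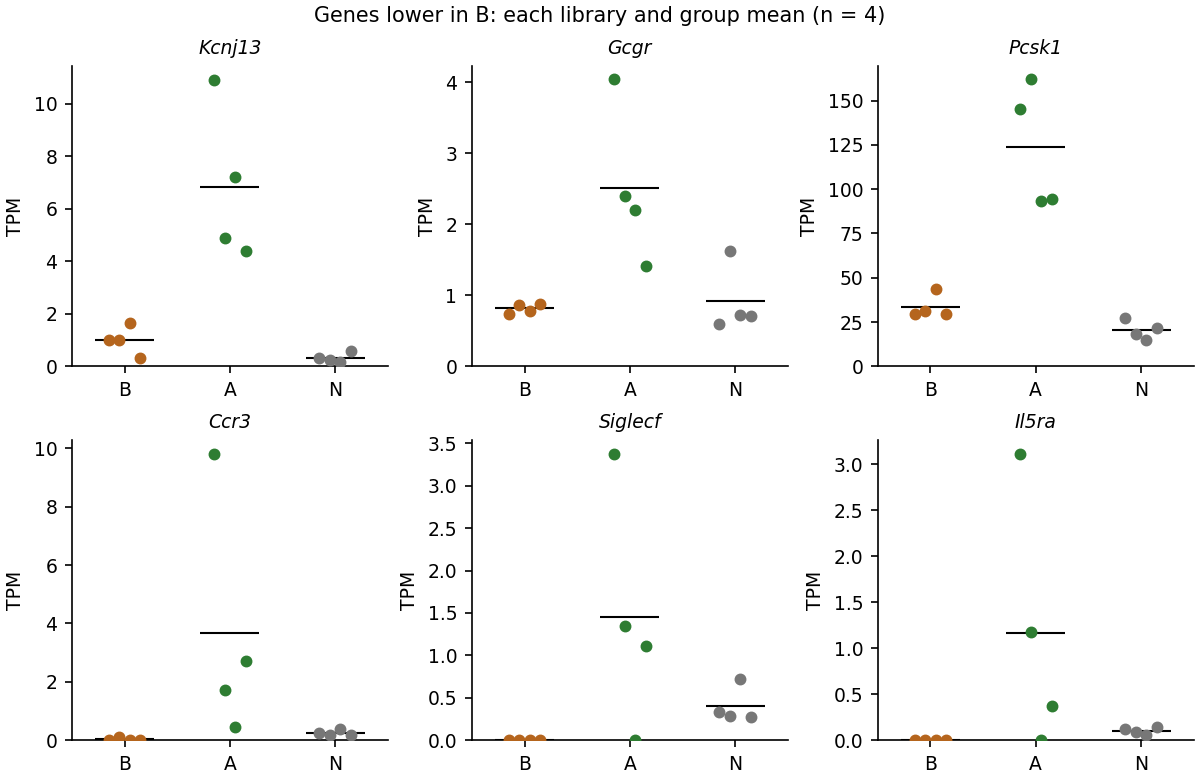
Levels in TPM of 6 genes lower in B, with a point for each library, a bar for the group mean and the groups B, A and N from left to right. For Kcnj13 and Pcsk1 all 4 A libraries lie above all B and N libraries, while Ccr3, Siglecf and Il5ra are at or near 0 in B and reach 9.8, 3.37 and 3.11 TPM in A1.

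Falls made up much of the class of genes highest in N, 889 of 2183. Over the class the median B level was 25.8% of the N level and the median A level 67%. Pdgfra, a growth factor receptor of mesenchyme, stood at 0.472, 1.21, 0.605 and 0.479 TPM in B, against 11.3, 18.6, 4.75 and 11.7 TPM in A and 6.79 to 27.2 TPM in N (log2 change -3.95, SE 0.48, adjusted p = 0.000501). A and N libraries overlapped and B libraries lay under both. Spi1, a transcription factor of myeloid cells, and Gngt2 fell by 4.36 and 4.38 on the log2 scale, and Ptgis, Ldb2 and Tmem204, which endothelial or mesenchymal cells express, by 3.97, 3.93 and 3.9. The single gene of the class that rose was Lta, which encodes lymphotoxin alpha, while with classes by normalised counts 32 genes highest in N rose. It stood at 0.205, 0.048, 0.152 and 0.229 TPM in B, at 0 in all 4 A libraries and at 0.643 to 1.56 TPM in N (adjusted p = 0.0215, and 0.0531 without B1).

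Marker lists of other cell types gave the levels that go with these falls. The summed mesenchyme markers stood at 158 to 504 TPM in B, 1010 to 3800 TPM in A and 1800 to 5290 TPM in N, and 16 of 18 tested members fell. The endothelial markers stood at 38.7 to 63.5 TPM in B, 84.5 to 243 TPM in A and 161 to 276 TPM in N, and 11 of 12 fell. For macrophage markers 8 of 13 fell, and for mesothelial markers 6 of 9. No member of these 4 lists was called higher. Most tested members of each list were highest in N, the class in which 40.7% fell, against 9.12% of all genes tested. By edgeR 0 of 23 tested acinar and 0 of 11 erythroid markers were called. At an unadjusted p under 0.05, 9 acinar and 3 erythroid markers were lower in B, and DESeq2 called 8 and 0. The acinar sum was at 32% of the N mean in B and 52.8% in A, and the erythroid sum at 0.676% in B and 1.64% in A. Erythroid sums were 1120, 1640, 3520 and 3740 TPM in B and 7940, 7700, 7300 and 1410 TPM in A, so that A4 lay within the B range. In N libraries they were 210000 to 508000 TPM. Of the ductal markers 1 rose and 4 fell, and of the Schwann and neural markers 1, Ngfr, fell. The part that carry-over of these cells has in the falls was not tested.

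**Figure D4:**
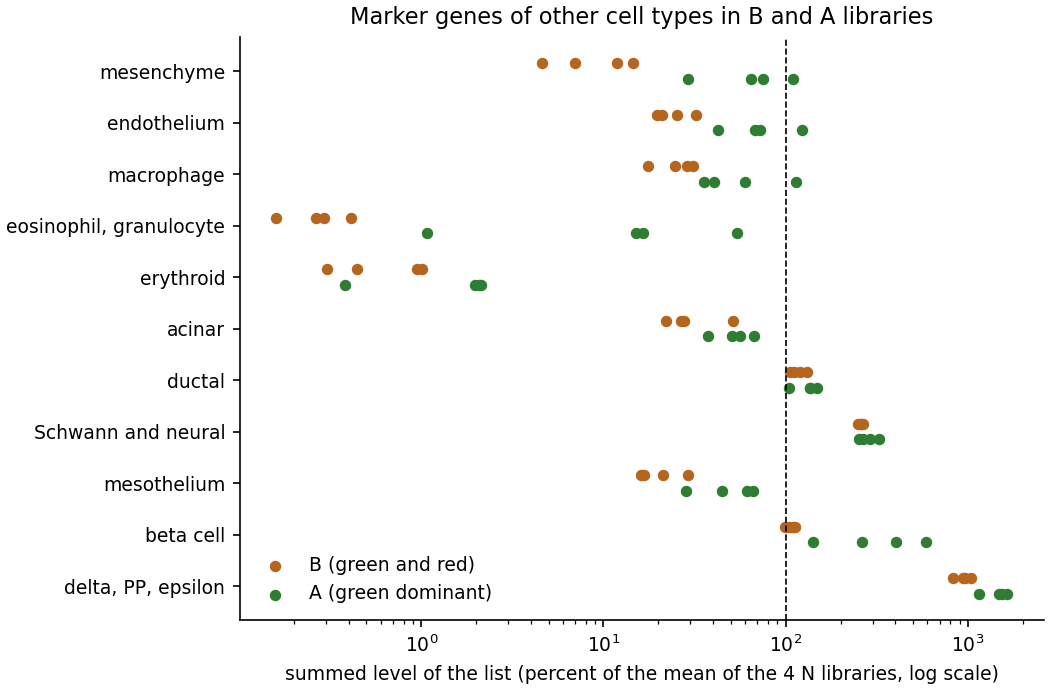
Summed level of each marker list in the 4 B and 4 A libraries, as a percent of the mean of the 4 N libraries, on a log scale with a dashed line at 100. Mesenchyme, endothelium, macrophage and granulocyte sums are lower in all B than in all A libraries, and beta cell sums are above the N mean in all A libraries, up to 98200 TPM.

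Genes of the other islet cells also fell. Of 25 tested beta cell genes 9 fell (36.0%, against 9.12% of all genes) and 0 rose, with a median of -0.65, and of 19 delta, PP and epsilon cell genes 8 fell (42.1%) and 0 rose, with a median of -0.84, and 7 of the 9 and 6 of the 8 were not highest in N. Ins2, an insulin gene that shares sequence with Ins1, stood at 6341, 8849, 5510 and 6764 TPM in B, against 48827, 74883, 12831 and 28557 TPM in A and 7821 to 18456 TPM in N (log2 change -2.64, SE 0.47, adjusted p = 0.00285). A2 was the highest and A3 the lowest A library for Ins2, as for Mafa and Sytl4. Ghrl, which encodes ghrelin, stood at 859, 823, 1492 and 1032 TPM in B, against 2754, 2386, 3014 and 3776 TPM in A and 36.7 to 88.3 TPM in N (log2 change -1.52, SE 0.24, adjusted p = 0.0015). Ppy, pancreatic polypeptide, stood at 642 to 1367 TPM in B and 1585 to 3200 TPM in A, and Pyy, peptide YY, at 11574 to 14885 TPM in B and 15651 to 23749 TPM in A. In N libraries Ppy stood at 47.6 to 99.1 TPM and Pyy at 362 to 528 TPM. Sst, somatostatin, stood at 273 to 618 TPM in B and 416 to 1560 TPM in A and was not called (adjusted p = 0.116, and 0.0293 without A3). Of all 8893 tested genes with an A mean over 2 times the N mean, 160 fell and 679 rose. Over all 17230 genes tested 1571 fell and 797 rose. Among the 160 were Ghrl, Ppy, Pyy, Pcsk1, Ins1 and Mafa.

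Rises outside the genes low in N included some peptides and enzymes. Of 31 tested genes of a peptide hormone list, however, 4 rose (12.9%, against 4.63% of all genes) and 8 fell (25.8%, against 9.12%). The median log2 change of that list was -0.84, and 2 of its 8 falls were of genes highest in N. Cartpt, a neuropeptide precursor, stood at 30.7, 31.6, 37.7 and 52.5 TPM in B and at 3.63, 6.31, 7.52 and 9.52 TPM in A (log2 change 2.38, SE 0.49, adjusted p = 0.00647). Sct, secretin, stood at 103, 108, 164 and 172 TPM in B and at 42.3, 39.6, 44 and 67.9 TPM in A (log2 change 1.49, adjusted p = 0.00468). Neither overlapped between groups. Fbp1, fructose-1,6-bisphosphatase of gluconeogenesis, stood at 123, 143, 116 and 184 TPM in B and at 20.7, 33, 25.6 and 45.5 TPM in A (log2 change 2.18, SE 0.25, adjusted p = 0.000396). Gfra3, the receptor for artemin, stood at 141 to 173 TPM in B and 56.8 to 68.6 TPM in A (log2 change 1.34, SE 0.1, adjusted p = 0.000105). Lgals2, a galectin, rose by 2.28, Chad, a matrix protein, by 1.84 and Xpnpep2, a membrane aminopeptidase, by 1.71. Slc38a5, a glutamine transporter of alpha cells, stood at 5965 to 7178 TPM in B and 2672 to 4051 TPM in A (log2 change 1.03).

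Among cell cycle genes most calls were rises, and among chaperones all calls were falls. Of 49 tested cell cycle genes 11 rose (22.4%, against 4.63% of all genes) and 2 fell, with a median of 0.34. Aurka, a mitotic kinase, stood at 27.5, 30.1, 30.5 and 26.3 TPM in B and at 16.7, 16.6, 15.6 and 17.6 TPM in A (log2 change 0.82, SE 0.11, adjusted p = 0.000885). Mcm2, a subunit of the replicative helicase, stood at 71 to 86.2 TPM in B and 44.8 to 53.1 TPM in A, and Kif11, a spindle motor, at 10.7 to 11.7 TPM in B and 3.76 to 7.58 TPM in A. The groups were separated for all 3 of these genes. Mki67 stood at 3.04 to 4.19 TPM in B and 1.84 to 4.12 TPM in A and was not called (adjusted p = 0.238, and 0.0235 without A4). Cdkn1c, an inhibitor of the cell cycle that was highest in N, fell to 120 to 258 TPM in B, against 390 to 1033 TPM in A (log2 change -1.99, adjusted p = 0.00422). Of 33 chaperones and folding enzymes of the endoplasmic reticulum 8 fell (24.2%, against 9.12% of all genes) and 0 rose, with a median of -0.42, and Hspa5 stood at 1123 to 1319 TPM in B and 1499 to 1843 TPM in A without a call (adjusted p = 0.0833). It was called by DESeq2, without N2 and in a fit of B and A libraries alone. Of 30 ribosomal protein genes and 13 mitochondrially encoded genes 0 were called by edgeR, 0 had an unadjusted p under 0.05 and DESeq2 called 0.

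The metabolic and signalling lists are set here against the 4.63% of all genes that rose and the 9.12% that fell. Of 45 glucose metabolism genes 3 rose (6.67%) and 10 fell (22.2%), and 6 of the 10 were highest in N. Of 47 growth factor genes 3 rose (6.38%) and 21 fell (44.7%), and 12 of the 21 were highest in N. Of 25 tested Notch genes 7 fell and 0 rose, all 7 were highest in N, and Notch1 was not called (adjusted p = 0.808). Of 54 adhesion and guidance genes 1, Unc5a, rose and 9 fell (16.7%), 6 of them highest in N. Of 27 amino acid transport genes 2 rose (7.41%) and 6 fell (22.2%), 4 of them highest in N. Of 44 lipid and retinoid genes 2 rose (4.55%) and 7 fell (15.9%), 6 of them highest in N. Of 41 ion channel genes 1 rose (2.44%) and 3 fell (7.32%), shares under those of all genes. Of 35 endocrine progenitor genes 1 rose (2.86%) and 6 fell (17.1%), 3 of them highest in N. Neurog3, which starts the endocrine programme, stood at 17.6, 18, 36.4 and 5.43 TPM in B and at 39.3, 26.6, 81.1 and 23.4 TPM in A. Neurog3 was lower in B in all 4 replicate pairs. It was not called without pairing (adjusted p = 0.182) and was called with the replicate block (adjusted p = 0.0215).

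**Figure D5:**
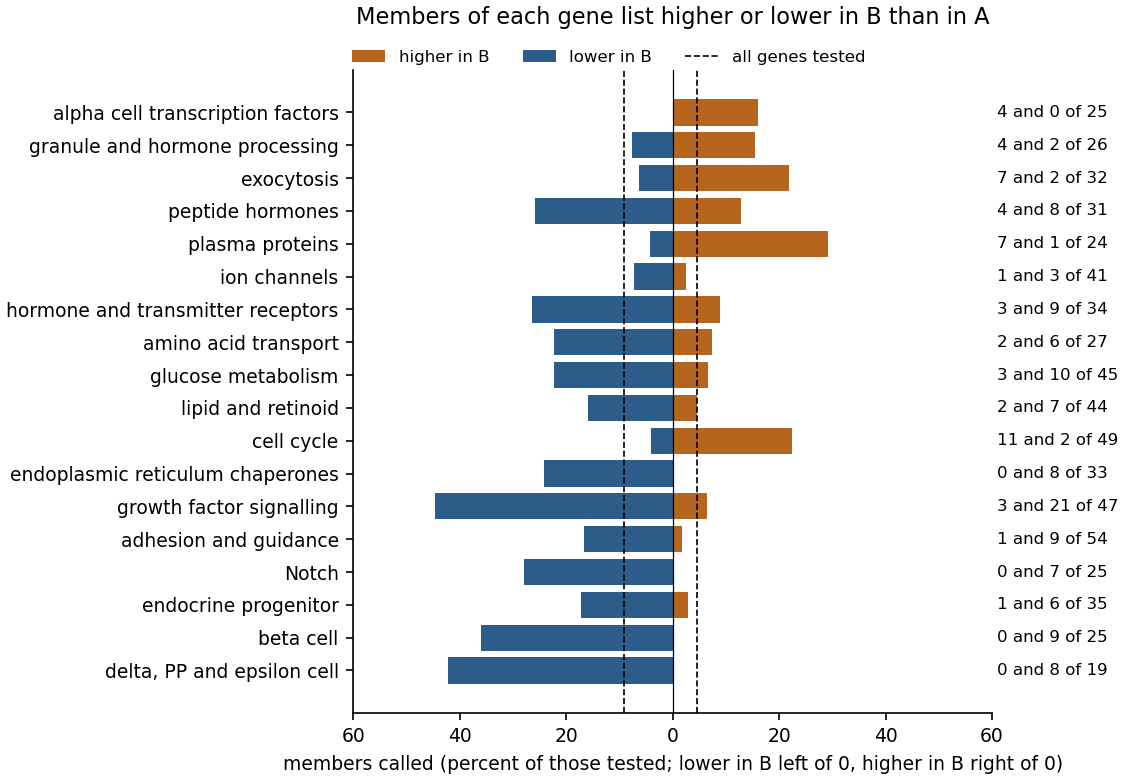
Percent of the tested members of each gene list that were lower in B (left of 0) or higher in B (right of 0) than in A, with the counts at the right and dashed lines at the shares of all genes tested, 9.12% lower and 4.63% higher. Among the lists past the line on the right are plasma proteins (7 of 24), cell cycle (11 of 49), exocytosis (7 of 32), alpha cell transcription factors (4 of 25) and granule genes (4 of 26), and among those past the line on the left are growth factor (21 of 47), delta, PP and epsilon cell (8 of 19) and beta cell genes (9 of 25).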

How the data were processed

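RNA of FACS-sorted pancreas cells was sequenced after extraction with an RNeasy mini plus kit and library preparation with a SMARTER mRNA-Seq kit, per the labels' protocols. The deposited table holds, per the file headers, an estimated count and a TPM value for each gene and library, with the reporter sequences EGFP and mRFP1 among the genes. Its coordinates and Ensembl IDs were taken as GRCm39, and those of another deposited table, used as an alternative, as mm10. The submitters' processing notes name STAR 2.5.2b and DRAGEN and the builds GRCm38 and GRCm39. They do not state which of these made which table.

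Rounding the deposited counts to integers moved library totals by at most 0.000286%. Genes were filtered with filterByExpr, scaled with TMM factors and fitted in edgeR 4.0.16 (R 4.3.3) with the quasi-likelihood test over all 12 libraries, with B minus A as contrast and Benjamini-Hochberg adjustment. TPM was used for levels and for the classes only. The fit was tested on simulated data of 16737 genes for this contrast. It recovered 39.4% of 66 genes given a log2 change of 1 and 81.2% of 64 given 2, and called 1 of the 16543 others. The simulated counts were independent, had the fit's own spread and held few changes, spread over both directions. The run therefore checks the code and does not give the error rate in the real data. Counting error is small at these depths for genes above a few TPM, and genes under 1 TPM rest on few reads. The labels give different mothers as the source of the replicates. The main fit has no replicate block, so its p-values measure the spread between libraries within a group, pooled over B, A and N. They do not measure the spread of the paired difference between preparations.

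Named genes were Gcg, EGFP and mRFP1. To these were added, among called genes of at least 5 TPM in B or A with no overlap, the 14 highest and 14 lowest log2 changes of the genes low in N, 8 and 8 of the other genes and 6 and 6 of the genes highest in N. From each of the 30 lists the first gene and the called member with the smallest p in each direction were named. Further genes named in the text were chosen after their values were seen, and some genes under the rule are not reported here. The members and lists were chosen with earlier results of these data known. Same-numbered libraries were read as 1 preparation, since the design text has dissociated pancreas sorted into the 3 groups and replicates from different mothers, although it does not explain the numbers. The deviations of B and A libraries of a number from their group means correlated at 0.0531, 0.16, 0.143 and 0.233, each above those of the differently numbered pairs of the same libraries. Alternatives were other scaling factors, DESeq2 1.42.0, other filters, other class limits, the mm10 table, a replicate block and leaving out each library.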

Additional observations from a re-analysis of the deposited data

Results flagged for a closer look

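Of 268 groups of 4 libraries examined, for named genes and the shares of counts, 22, or 8.21%, held a library that stood apart from the other 3 by Dixon's criterion at the 95% level, and chance gives about 1 in 20. Among B libraries these were Nkx6-2 in B3 at 9.21 TPM, Cpb2 in B4 at 64.2 TPM, Cyp4f18 in B1 at 0.039 TPM, Retnlg in B4 at 0.274 TPM, Pla2g7 in B3 at 0.067 TPM and Pcsk1 in B3 at 43.8 TPM. Further B libraries standing apart were Notch1 in B4 at 12.7 TPM, Vim in B2 at 22.6 TPM, Msln in B4 at 5.42 TPM, Trf in B4 at 247 TPM, Igsf21 in B4 at 78.1 TPM and Pcdhb17 in B3 at 0.866 TPM. Among A libraries they were Nkx6-2 in A3 at 1.75 TPM, Crtac1 in A3 at 0.527 TPM, 4930447F24Rik in A3 at 0.974 TPM, Retnlg in A1 at 48.9 TPM, Ms4a7 in A4 at 18.6 TPM and Zfp521 in A2 at 9.3 TPM. The other A libraries standing apart were Ms4a4a in A4 at 11.9 TPM, Sct in A4 at 67.9 TPM, Hba-a1 in A4 at 344 TPM and Pck1 in A4 at 0.128 TPM.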

How the results depend on the processing

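Without a single library, 440 to 1145 genes were called higher in B and 1056 to 1750 lower. Among genes low in N these counts were 85 to 162 and 120 to 210, among genes highest in N 0 to 3 and 629 to 982 and among other genes 339 to 983 and 285 to 606. The difference in the share of counts stayed between 0.207 and 0.318 percentage points for genes low in N (exact permutation p up to 0.0857) and between -9.12 and -6.65 for genes highest in N (p up to 0.0571). DESeq2 called 1209 genes higher in all, 228 higher and 252 lower among genes low in N, 3 higher among genes highest in N and 978 higher among other genes. With no filter 397 other genes were higher. With 10 counts in 8 libraries 61 genes low in N were lower and 0 genes highest in N higher, and in a fit of B and A libraries alone 40 and 2. Tested against a fold of 2, 23 genes were higher and 381 lower, of which 17 and 45 were low in N, 0 and 294 highest in N, and 6 and 42 others. The mm10 counts gave 81 lower genes low in N and 303 lower others, and 3 genes highest in N were higher. A limit of 0.5 TPM in N left 78 lower genes low in N, and a limit of 2 TPM gave 312, with 0 higher genes highest in N and a share difference of 0.448 (exact permutation p = 0.0571). Requiring the class rule in every library gave 98 lower genes highest in N, 1362 lower others and a share difference of -0.643 for genes highest in N. Classes by normalised counts, an alternative chosen after seeing the data, gave 32 higher genes highest in N, 109 lower others and a share difference of -9.92. The replicate block kept the share differences at 0.271 and -7.56 (exact sign-flip p = 0.125) and called 1055 genes higher and 1732 lower, and among the genes named it changed no call other than those given beside their results. The cause of these shifts was not tested. Of the 146 and 163 calls among genes low in N, 145 and 163 were shared with DESeq2 and 127 and 38 with the fit of B and A libraries alone. No named gene reversed under any of these settings.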
